A study of Mus musculus with 6 samples.

Results

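Chemokines, the small secreted proteins that draw white blood cells along a concentration gradient, were followed here in fibroblasts through 10 genes: Ccl2, Ccl5, Ccl7, Ccl8, Cxcl1, Cxcl2, Cxcl5, Cxcl10, Cxcl12 and Cx3cl1. They were taken by gene symbol from a table of 21853 genes, and all 10 symbols stood in it. The cells were mouse embryonic fibroblasts of the C57BL/6J strain, labelled with an age of 12 days, and every group carried the same xCT knockout, so there was no xCT wild-type control. xCT, the product of Slc7a11, imports cystine for glutathione synthesis. A control group given water (3 libraries) was compared with a group given red clover extract, RCE (3 libraries), in a study about ferroptosis, an iron-dependent form of cell death. The dose, the length of exposure, the medium and whether the replicates were separate cultures are not given in the sources used here, so a p-value here weighs a difference against the spread of 6 libraries that may be technical replicates.

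Chemokines are named for the spacing of the cysteines near their amino end. CC chemokines such as CCL2 and CCL7 act mainly on monocytes and related cells through CC receptors. CXC chemokines fall into the neutrophil attractants CXCL1, CXCL2 and CXCL5, the interferon-induced lymphocyte attractant CXCL10, and CXCL12, which stromal cells make without a stimulus and which holds stem cells and lymphocytes in their niches through CXCR4. CX3CL1, or fractalkine, is made as a membrane protein with a chemokine domain on a mucin stalk and is released by proteases. In fibroblasts the inflammatory members are induced by interleukin 1, TNF and pathogen products, largely through the transcription factor NF-kB.

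The sequence before the gene start is shown for 4 members at the ends of the range of levels described next, the most abundant (Cxcl12) and 3 that lay near 0 (Cxcl1, Cxcl2 and Cxcl10). Each line gives the 250 bases before the start in RefSeq, build GRCm38.p6, read 5′ to 3′ on the strand of the gene. Capitals mark GC boxes (GGGCGG on either strand) in Cxcl12 and matches to the NF-kB consensus GGGRNNYYCC, on either strand, in the other 3. R stands for A or G, Y for C or T, and N for any base.
Cxcl12, chr6:117168285-117168534, plus strand: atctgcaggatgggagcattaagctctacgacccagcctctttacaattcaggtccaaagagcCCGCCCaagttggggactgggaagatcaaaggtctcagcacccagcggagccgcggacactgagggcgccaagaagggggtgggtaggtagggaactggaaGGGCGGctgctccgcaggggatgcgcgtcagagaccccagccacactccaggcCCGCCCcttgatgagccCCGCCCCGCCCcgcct
Cxcl1, chr5:90890995-90891244, plus strand: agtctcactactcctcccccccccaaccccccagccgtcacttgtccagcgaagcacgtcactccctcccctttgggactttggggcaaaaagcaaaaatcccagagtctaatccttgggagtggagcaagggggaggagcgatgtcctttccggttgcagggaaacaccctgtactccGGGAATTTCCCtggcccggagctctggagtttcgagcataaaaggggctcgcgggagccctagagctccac
Cxcl2, chr5:90903649-90903898, plus strand: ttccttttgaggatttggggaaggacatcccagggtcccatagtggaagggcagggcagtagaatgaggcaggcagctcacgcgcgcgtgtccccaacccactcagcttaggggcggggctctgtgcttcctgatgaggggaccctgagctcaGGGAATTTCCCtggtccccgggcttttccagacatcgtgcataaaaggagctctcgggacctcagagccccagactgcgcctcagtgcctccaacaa
Cxcl10, chr5:92348890-92349139, minus strand: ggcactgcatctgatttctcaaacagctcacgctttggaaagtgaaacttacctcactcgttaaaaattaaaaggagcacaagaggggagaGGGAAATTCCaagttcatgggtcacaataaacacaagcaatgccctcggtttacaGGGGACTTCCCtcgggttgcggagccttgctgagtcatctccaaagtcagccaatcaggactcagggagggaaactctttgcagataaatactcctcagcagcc

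The promoter table held 6 of the 10 members, and no entry was found for Ccl2, Ccl5, Ccl7 and Cxcl5. An NF-kB match stood in the windows of Cxcl1, Cxcl2 and Cxcl10 and in 7.25% of all 32851 promoter windows of the same length. Cxcl1 and Cxcl2 had 2 overlapping matches each, the nearest 70 bases before the start of Cxcl1 and 96 before that of Cxcl2, and the letters in capitals are the same in both. The Cxcl10 window held 3 matches, of which 2 overlapped, and also the AP-1 motif TGANTCA (in 6.75% of all windows) and an interferon-stimulated response element (in 0.685%). GC boxes were at 5 places in Cxcl12, some overlapping, at 1 in Cxcl2 and at 1 in Cx3cl1, and in 32.7% of all windows. The windows of Ccl8, Cxcl12 and Cx3cl1 held no NF-kB, AP-1 or interferon-response match as spelled here. GC content was 64.4% in Cxcl12, 64.8% in Cx3cl1, 60.0% in Cxcl2, 59.2% in Cxcl1, 48.0% in Cxcl10 and 44.8% in Ccl8, against a median of 52.4% over all windows. A match describes letters and shows no binding.

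Levels are in FPKM, the number of fragments per kilobase of a transcript scaled to those in the library, so levels of different genes can be compared per length. Steps between low values gave 45700000 to 59000000 fragments per library. Slc7a11 lay between 0.007 and 0.037 FPKM in the 6 libraries. All 18 fibroblast markers had a mean of at least 1 FPKM, among them Col1a1, the main fibrillar collagen chain, at 1250 ± 20.8 FPKM in control (SD, n = 3) and 1166 ± 34.5 with RCE. Library number 1 of each group stood apart from the others. Calls of the members and counts over all genes are given without that pair where it changes them, and so are some list counts.

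The 10 genes fell into 4 expressed members and 6 near 0. Cxcl12 stood far above the others, at 334 ± 13.3 FPKM in control and 362 ± 19.6 with RCE (SD, n = 3), rank 132 of the 21853 genes by mean level. It made up 86.8 to 88.3% of the summed FPKM of the 10 members in control libraries and 94.4 to 95.2% in RCE libraries. Ccl2 and Ccl7 came next in control, at 22.1 ± 1.45 and 20.2 ± 2.30 FPKM, levels that did not differ beyond their spread. Cx3cl1 followed at 4.83 ± 0.578 FPKM, below every control value of Ccl2 and Ccl7. The 6 other members together summed to 0.365 to 0.843 FPKM in a library.

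**Figure D1:**
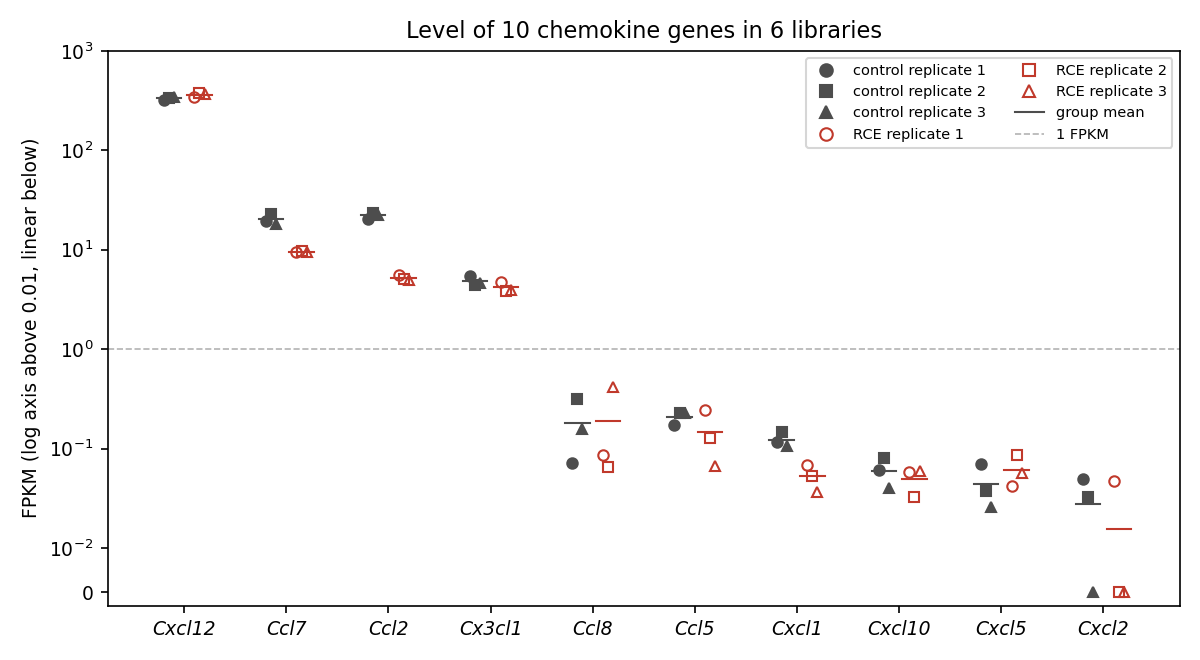
Level (FPKM, logarithmic axis above 0.01 and linear below) of the 10 chemokine genes in the 3 control libraries (filled) and the 3 RCE libraries (open), marker shape giving the replicate and short lines the group means. Cxcl12, Ccl7, Ccl2 and Cx3cl1 lie above the dashed line at 1 FPKM and the other 6 below it, and the groups of Ccl2 and Ccl7 do not overlap.

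Ccl2 and Ccl7, which encode the monocyte attractants MCP-1 and MCP-3, fell with RCE, and they were the members that passed the test. Groups were compared by limma on log2(FPKM + 1) for the 10870 genes whose mean reached 1 FPKM, with Benjamini-Hochberg adjustment over all of them, and fold changes below are RCE minus control on that scale, which understates the change of low genes. The 4 expressed members were in that test, of which 2 were lower and 0 higher at an adjusted p below 0.05. Of all genes tested 6.77% were lower and 17.6% higher. The 6 low members were not in it.

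Ccl2 (ENSMUSG00000035385, chromosome 11, 82035571 to 82037453 on mm10, plus strand) was at 20.5, 23.3 and 22.5 FPKM in control replicates 1, 2 and 3 and at 5.57, 5.07 and 4.91 FPKM in the RCE replicates. All 3 control values were far above all 3 RCE values, and the values within each group lay close together. The RCE mean, 5.18 ± 0.346 FPKM, was 23.4% of the control mean (SD, n = 3). The log2 change was -1.90 (SE 0.07, 95% interval -2.06 to -1.74, limma adjusted p = 4.17e-05), the 10th most negative of the 10870 genes tested. Each control value rested on about 903 to 937 fragments and each RCE value on about 207 to 243, at the shorter annotated transcript.

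Ccl7 (ENSMUSG00000035373, chromosome 11, 82045712 to 82047525, plus strand) was at 19.5, 22.7 and 18.3 FPKM in control and at 9.45, 9.61 and 9.54 FPKM with RCE. The groups did not overlap, and the RCE libraries were closer to each other than the control libraries were. The RCE mean, 9.53 ± 0.078 FPKM, was 47.3% of the control mean of 20.2 ± 2.30 (SD, n = 3, log2 change -1.0, SE 0.08, 95% interval -1.19 to -0.81, limma adjusted p = 7.22e-04). Its change had rank 59 from the most negative. Groups that lay fully apart with RCE below were seen for 10.9% of all genes tested. Both genes were lower in 3 of 3 pairs of same-numbered libraries, as any pairing gives where groups do not overlap. Both passed the threshold in all 16 alternative analyses. The changes of Ccl2 ran from -2.07 to -1.86 (limma adjusted p up to 9.67e-04). Those of Ccl7 ran from -1.08 to -0.92 (adjusted p up to 0.00749).

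The fall was larger for Ccl2 than for Ccl7, and the ratio between them moved with RCE. Within a library, Ccl7 was at 0.950, 0.976 and 0.812 times the FPKM of Ccl2 in control replicates 1, 2 and 3, and at 1.70, 1.90 and 1.94 times in the RCE replicates. Ccl2 was thus the higher of the pair in every control library and Ccl7 in every RCE library. The mean log2 ratio went from -0.14 ± 0.14 to 0.88 ± 0.10 (SD, n = 3), a difference of 1.02 that does not depend on how libraries are scaled (2-sided exact permutation test, p = 0.1, the smallest that 3 against 3 can give). Which FPKM is higher within a library also rests on the transcript length used, since Ccl2 has 2 annotated transcripts of 813 and 1096 bases and Ccl7 has 1 of 801. The difference between the groups does not rest on it, if the same length was used in all libraries. Cxcl12 was at 14.5 to 15.6 times the FPKM of Ccl2 in control libraries and 61.1 to 75.3 times in RCE libraries.

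**Figure D2:**
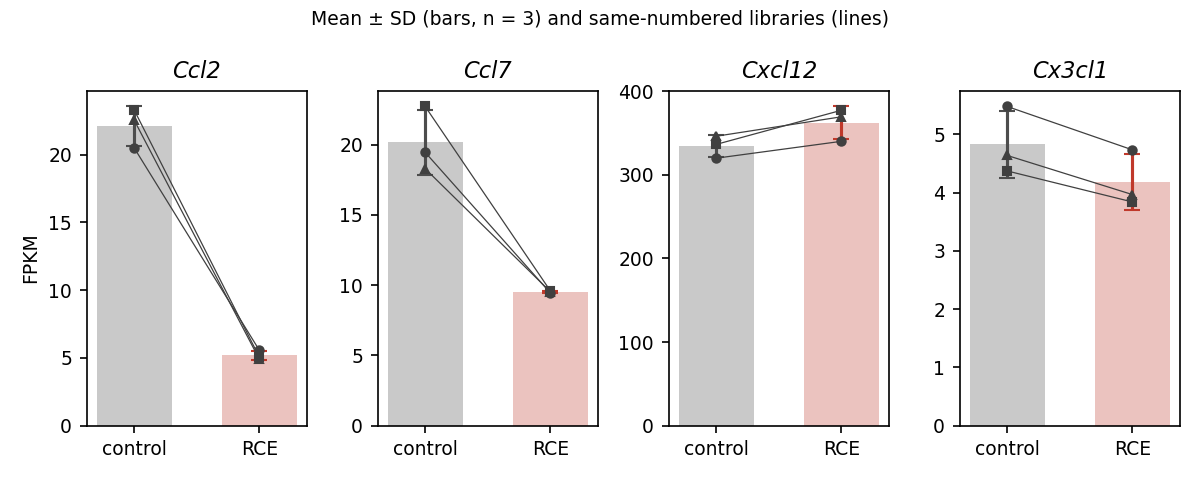
FPKM (linear axes from 0) of the 4 expressed members in control and RCE libraries, with bars for the mean, error bars for the SD (n = 3) and lines joining same-numbered libraries. Ccl2 and Ccl7 go down in all 3 pairs to 23.4% and 47.3% of the control mean, and the groups of Cxcl12 and Cx3cl1 overlap while their lines go up and down, respectively, in all 3 pairs.

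Ccl2 and Ccl7 are neighbours on chromosome 11, with starts 10.1 kb apart, in a group of CC chemokine genes. The next genes of that group were close to 0: Ccl11, the eosinophil attractant eotaxin, had at most 0.034 FPKM in a library, and Ccl12, a monocyte attractant, was listed at 0 in 5 of 6 libraries and at 0.038 FPKM in control replicate 3. Ccl8, 79.6 kb from Ccl2, is described with the low members. Transcripts of Ccl2 and Ccl7 share no run longer than 23 bases, the longest that either shares with another chemokine ligand of the table. The gene Gm17268 overlaps Ccl2 on the other strand and was listed at 0 FPKM in all 6 libraries.

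**Figure D3:**
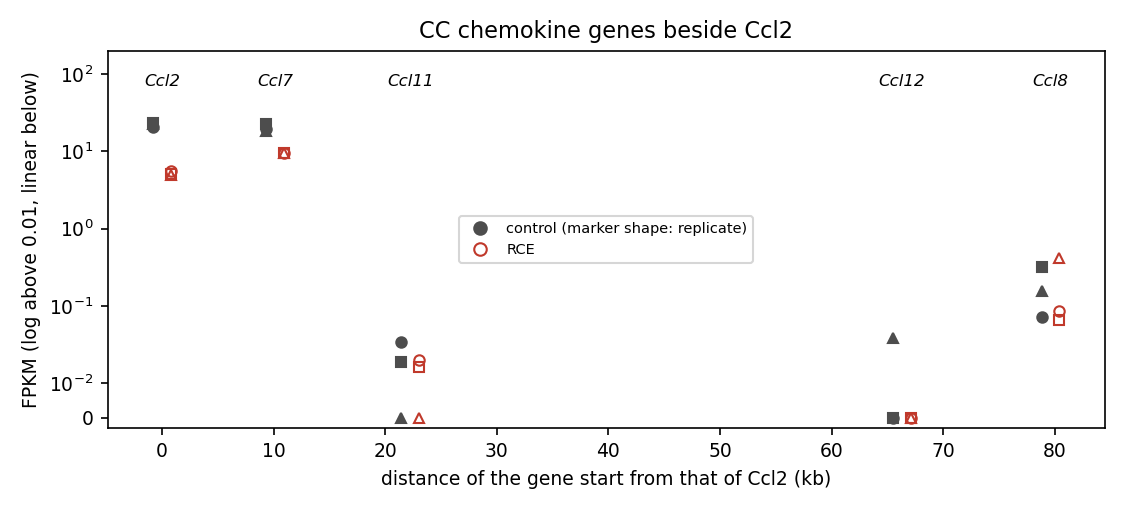
FPKM (logarithmic above 0.01, linear below) of 5 CC chemokine genes against the distance of their start from that of Ccl2 in kb, for control (filled) and RCE (open) libraries, marker shape giving the replicate. Ccl2 and Ccl7 stand above 4 FPKM in every library, and Ccl11, Ccl12 and Ccl8 below 0.5.

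Cxcl12 (ENSMUSG00000061353, chromosome 6, 117168535 to 117181367, plus strand), the ligand of CXCR4, was at 320, 336 and 346 FPKM in control replicates 1, 2 and 3 and at 340, 377 and 369 FPKM with RCE. The groups overlapped, since RCE replicate 1 lay below control replicate 3. The log2 change was 0.12 (SE 0.06, 95% interval -0.03 to 0.26, limma adjusted p = 0.226), close to the median of +0.08 over all genes tested. The level was higher in 3 of 3 pairs of same-numbered libraries. With the replicate number as a block in limma it was called higher (adjusted p = 0.0096), as were 46.6% of all genes tested. It was also called without both libraries numbered 1 (0.13, limma adjusted p = 0.018), an analysis that called 40.1% of all genes higher and 13.6% lower. With median-of-ratios scaling the change was 0.029 (adjusted p = 0.783).

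Cx3cl1 (ENSMUSG00000031778, chromosome 8, 94772009 to 94782427, plus strand), which encodes fractalkine, was at 5.48, 4.37 and 4.64 FPKM in control and at 4.74, 3.84 and 3.97 FPKM with RCE. Its groups overlapped as well, with RCE replicate 1 above control replicates 2 and 3. Control averaged 4.83 ± 0.578 FPKM and RCE 4.18 ± 0.484 (SD, n = 3, log2 change -0.17, SE 0.09, 95% interval -0.40 to 0.06, limma adjusted p = 0.242). The level was lower in 3 of 3 pairs, and with the replicate block the gene was called lower (limma adjusted p = 0.00277), as were 15.9% of all genes tested. Without both libraries numbered 1 it was also called (-0.17, adjusted p = 0.015). Over 15 alternatives its change ran from -0.26 to -0.09, with adjusted p from 0.00277 to 0.511. With RCE the order of levels was Cxcl12, Ccl7, Ccl2 and Cx3cl1, and the lowest Ccl2 value, 4.91 FPKM, lay just above the highest Cx3cl1 value, 4.74 FPKM.

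**Figure D4:**
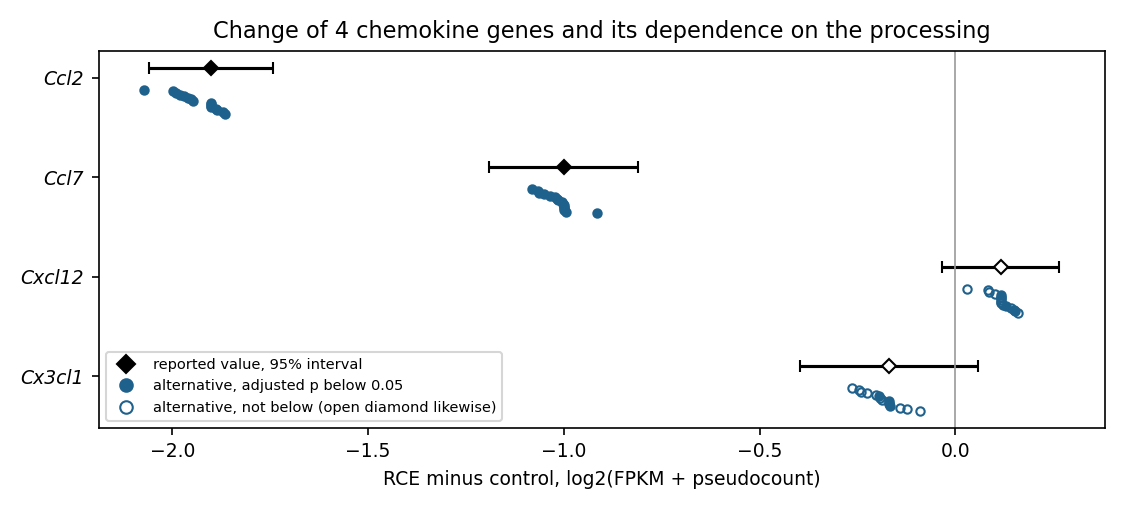
Change of the 4 expressed members, RCE minus control on a log2 scale, with diamonds for the reported value and its 95% interval and circles for the alternative analyses, filled where the adjusted p is below 0.05. All circles of Ccl2 lie between -2.07 and -1.86 and all of Ccl7 between -1.08 and -0.92, while most circles of Cxcl12 and Cx3cl1 are open.

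The low members comprised the neutrophil attractants Cxcl1, Cxcl2 and Cxcl5, the interferon-induced Cxcl10 and the CC members Ccl5 and Ccl8. Here a member is called at the floor where a group mean was under 0.05 FPKM or worth under 3 fragments. Cxcl1, Cxcl2, Cxcl5 and Cxcl10 were at the floor by that measure, Cxcl10 only on its RefSeq transcript of 1094 bases (3.37 fragments per control library and 2.88 per RCE library on average), while Ccl5 and Ccl8 were just above it. FPKM of 5 of them, all but Cxcl10, came out as whole fragments (within 0.1) in every library on an annotated transcript, at 0 to 12 fragments per library.

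Cxcl1 (ENSMUSG00000029380, chromosome 5, 90891241 to 90893115) was at 0.116, 0.148 and 0.106 FPKM in control and 0.069, 0.053 and 0.037 FPKM with RCE. These were 6, 7 and 5 fragments against 3, 3 and 2, and the groups did not overlap. The share given above for groups lying apart, 10.9% with RCE below, was counted over the 10870 genes tested. That share leaves out low genes such as Cxcl1. Summed over a group there were 18 fragments (exact 95% Poisson interval 10.7 to 28.4) against 8 (3.45 to 15.8), a ratio of 0.423 at equal depth (0.159 to 1.02). Such intervals cover counting error only. In limma with no low-value filter Cxcl1 was called lower (adjusted p = 0.0484, where 3.71% of all 21853 genes were lower). The exact permutation test gave p = 0.1, the smallest possible. Its level with RCE was worth under 3 fragments per library.

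Cxcl2 (ENSMUSG00000058427, chromosome 5, 90903871 to 90905938), which lies 12.6 kb from Cxcl1, was at 0.050, 0.033 and 0 FPKM in control and 0.047, 0 and 0 FPKM with RCE. That was 8 fragments in the control libraries together and 4 in the RCE libraries. A stretch of 157 bases is shared with Cxcl3, so fragments of those 2 genes could be exchanged. Cxcl5 (ENSMUSG00000029371, chromosome 5, 90759360 to 90761624) was at 0.070, 0.038 and 0.026 FPKM in control and 0.042, 0.086 and 0.057 FPKM with RCE, or 11 and 16 fragments. A change of this size was not detectable at this depth (ratio 1.38, interval 0.604 to 3.30).

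Cxcl10 (ENSMUSG00000034855, chromosome 5, 92346638 to 92348889, minus strand) was at 0.061, 0.080 and 0.040 FPKM in control and 0.058, 0.033 and 0.059 FPKM with RCE. The groups overlapped, and at its longest annotated transcript the libraries would hold 4.34 to 8.83 fragments, above the floor. Ccl5 (ENSMUSG00000035042, chromosome 11, 83525778 to 83530518, minus strand), the T cell attractant RANTES, was at 0.173, 0.228 and 0.228 FPKM in control and 0.247, 0.127 and 0.067 FPKM with RCE. These were 17 and 12 fragments in all (ratio 0.672, interval 0.293 to 1.49).

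Ccl8 (ENSMUSG00000009185, chromosome 11, 82115185 to 82116799, plus strand) is also called MCP-2. Its levels were 0.072, 0.316 and 0.158 FPKM in control and 0.086, 0.066 and 0.418 FPKM with RCE. It varied more within a group than between groups, from 2 to 8 fragments in control and from 2 to 12 with RCE. With no low-value filter limma gave adjusted p of 0.628 for Ccl5, 0.695 for Cxcl5, 0.823 for Cxcl10, 0.923 for Cxcl2 and 1 for Ccl8. Counts this small leave wide intervals, and none of these values shows that the levels were equal.

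The other ligands, the receptors and the genes that act before and after chemokines were taken from lists. Their counts are to be read against all genes tested, of which 6.77% were lower and 17.6% higher, and with the replicate block 15.9% lower and 46.6% higher, with a median change of 0.08. Without both libraries numbered 1, 13.6% of all genes tested were lower and 40.1% higher, and several list counts moved too. The lower counts became 8 for chemokine processing and retention, 11 for fibroblast markers and 3 for leukocyte markers. The higher counts became 12 for receptors and adaptors of interleukin 1, TNF and Toll-like signals and 6 for the interferon response. Of 27 other chemokine ligands, 24 had a mean under 1 FPKM and 4 were listed at 0 in all libraries. Cxcl14, a ligand of epithelia and stroma, was lower (3.56 ± 0.509 to 1.61 ± 0.11 FPKM, SD, n = 3, log2 change -0.80, limma adjusted p = 0.00234). Its control values were 3.92, 3.79 and 2.98 FPKM and its RCE values 1.74, 1.59 and 1.52, without overlap. Ccl25 and Ccl27a did not pass, with changes of 0.14 (limma adjusted p = 0.178) and 0.08 (0.634). The block took Ccl25 past the threshold (0.0211).

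Receptors that signal in response to chemokines were low in these libraries. Of 23 receptor genes 7 were at 0 in all libraries, and 21 had a mean under 1 FPKM. The highest of these was Cxcr6, at 0.608 ± 0.087 FPKM in control and 0.340 ± 0.168 with RCE. Its groups did not overlap, but it was not called in limma with no low-value filter (adjusted p = 0.232). How many low genes lay apart in this way was not counted. Cxcr4, the signalling receptor of CXCL12, averaged 0.09 FPKM in control and 0.04 with RCE, and Ccr2, the receptor of CCL2 and CCL7, 0.00 in both. Ccr1, which also binds CCL7, was at 0.254, 0.285 and 0.229 FPKM in control and 0.015, 0.030 and 0.006 FPKM with RCE. It was called lower in limma with no low-value filter (adjusted p = 0.00337), as were 3.71% of all 21853 genes. The RCE mean of Ccr1, 0.017 FPKM, was under the 0.05 FPKM used above for the floor. The 2 receptors that passed the low-value filter were scavengers, which take up chemokines without the usual G protein signal, and both fell. Ackr3, which binds CXCL12, averaged 15.0 ± 0.297 FPKM in control and 10.7 ± 0.440 with RCE (SD, n = 3, change -0.46, limma adjusted p = 0.00164). Ackr4, which binds the ligands CCL19, CCL21 and CCL25, went from 1.88 ± 0.075 to 0.471 ± 0.058 FPKM (-0.97, adjusted p = 1.03e-04), and passed that filter through its control level.

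Genes of chemokine processing and retention on heparan sulfate gave 5 lower and 0 higher of the 14 tested (median -0.11, 8 and 2 with the replicate block). The largest changes were in Sdc4, a heparan sulfate proteoglycan of the cell surface, at 33.3 ± 5.06 and 17.3 ± 2.55 FPKM (-0.90, limma adjusted p = 0.00766), and Timp1, an inhibitor of matrix metalloproteinases, at 560 ± 45.4 and 376 ± 24.9 FPKM (-0.57, adjusted p = 0.00541). These 2 calls held in all 16 alternatives, and the count of lower genes fell to 3 without control replicate 1, control replicate 2, RCE replicate 2 or RCE replicate 3, and to 2 without control replicate 3. Adam10 and Adam17, the proteases that release CX3CL1, did not pass, with changes of 0.08 (limma adjusted p = 0.439) and 0.07 (0.607), though Adam10 did under the block (0.0388).

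Among receptors and adaptors of interleukin 1, TNF and Toll-like signals 4 of 26 were lower and 1 higher (median 0.07, against 0.08 over all genes tested). Under the block these counts became 7 (26.9%) and 13 (50%), the latter near the share of all genes. Il1r1, the signalling receptor of interleukin 1, went from 5.34 ± 0.35 to 3.28 ± 0.177 FPKM (SD, n = 3, -0.57, limma adjusted p = 0.00172). Il1rl1, the receptor of interleukin 33, went from 15.6 ± 1.44 to 8.26 ± 0.385 FPKM (-0.84, adjusted p = 0.00101), and Il17ra from 8.67 ± 0.028 to 7.02 ± 0.251 FPKM (-0.27, adjusted p = 0.00646). Their calls held in every alternative in which they were tested. The 1 higher gene was Tlr3, at 0.965 ± 0.020 FPKM in control and 1.17 ± 0.027 with RCE (0.14, limma adjusted p = 0.0287). It passed the low-value filter through its RCE level. Its call ended under quantile normalization, under median-of-ratios scaling and without control replicate 1, 2 or 3, RCE replicate 2 or RCE replicate 3. Without RCE replicate 1, 4 genes of this list were higher.

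Of 13 NF-kB subunits, inhibitors and feedback genes 6 were lower and 0 higher (median -0.16, 7 lower with the block). Nfkbiz, the nuclear IkB protein that activates a subset of NF-kB targets, went from 9.14 ± 0.379 to 3.47 ± 0.274 FPKM (log2 change -1.18, limma adjusted p = 1.24e-04). The changes of Bcl3, another nuclear IkB protein, and of the subunit Relb were -0.88 (adjusted p = 0.00739) and -0.50 (adjusted p = 0.00588). These 3 held in every alternative in which they were tested, and the count of lower genes was 3 without control replicate 2, control replicate 3, RCE replicate 2 or RCE replicate 3. The main activating subunit Rela did not pass (39.8 ± 5.29 and 39.2 ± 5.77 FPKM, -0.02, adjusted p = 0.92).

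Of 14 genes of chemokine mRNA decay 3 were lower and 1 higher (median 0.06, 3 and 5 with the block). Zfp36l2, of the family that sends AU-rich messages to decay, led with 110 ± 15.8 and 59.1 ± 11.6 FPKM (-0.90, limma adjusted p = 0.0105), and its call ended without RCE replicate 2 (adjusted p = 0.0505). No lower call of this list was left without that library, and 1 was left without control replicate 1, control replicate 2 or RCE replicate 3. The higher gene was Cnot1. Its call ended without any 1 of the 6 libraries and under both of the other scalings (median of ratios and quantile). Of 15 genes of the interferon response 3 were higher and 1 lower (median 0.07, 7 and 3 with the block), and none of these calls held in every alternative. Scaling by median of ratios left 1 higher gene and quantile normalization 0, and 0 were left without control replicate 3, RCE replicate 2 or RCE replicate 3. The higher genes were Irf1, Ifngr1 and Ddx58, called in 11 of 15, 10 of 16 and 8 of 16 alternatives. The lower gene was Bst2 (named after its values were seen), which encodes the antiviral protein tetherin. Its call ended without control replicate 1, 2 or 3, RCE replicate 2 or RCE replicate 3. The shares, 20.0% higher and 6.67% lower, lay near those of all genes tested, as did the 46.7% higher with the block.

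Other secreted and surface factors of inflamed fibroblasts held 5 lower and 0 higher genes of 9 tested (median -0.19, 7 lower and 1 higher with the block). The prostaglandin synthase Ptgs2 (-1.44, limma adjusted p = 5.22e-05), the cytokines Il11 (-1.12, adjusted p = 2.94e-04) and Lif (-0.97, adjusted p = 2.36e-04) and the hyaluronan synthase Has2 (-0.91, adjusted p = 3.91e-04) had the smallest p. Their calls held in every alternative in which they were tested. Vcam1, an adhesion molecule for leukocytes, was at 39.9 ± 3.34 and 35.0 ± 3.44 FPKM and did not pass (-0.19, limma adjusted p = 0.19, with the block 6.11e-04). Several of these genes were known from earlier results of the same libraries when the list was drawn up, so their direction is not independent evidence.

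**Figure D5:**
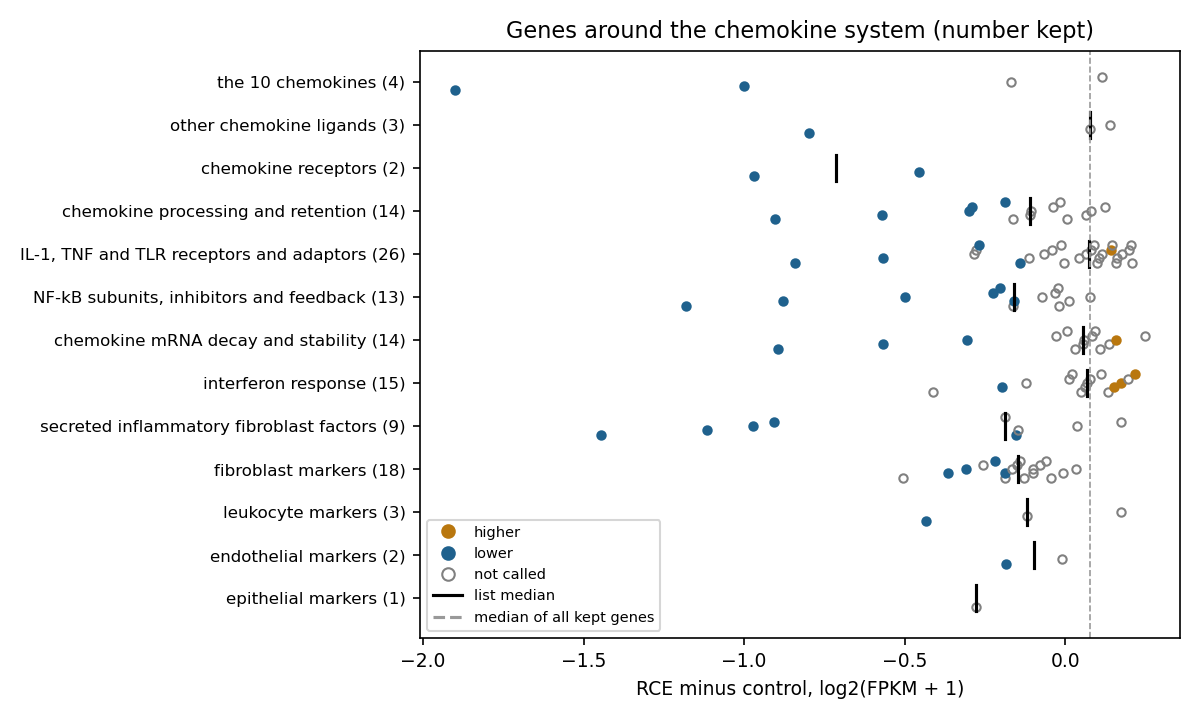
Change of the genes tested in each list, RCE minus control on the log2(FPKM + 1) scale, coloured where called higher or lower, with black lines for list medians (not drawn for the 10 chemokines) and a dashed line for the median of all genes tested (0.08). Ccl2 has the most negative value of all genes plotted, and called genes of the NF-kB, inflammatory and receptor lists lie mostly to the left.

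Markers of other cell types moved with the groups in part. Of 21 leukocyte markers 18 had a mean under 1 FPKM, among them the pan-leukocyte gene Ptprc (0.07 FPKM in control and 0.04 with RCE) and Csf1r, the receptor that defines macrophages (0.63 and 0.45), and none was at 0 in all libraries. Their summed level ran from 18.9 to 19.8 FPKM in control and from 14.5 to 16.5 with RCE, and 1 of 3 tested, the lysozyme gene Lyz2, was lower (11.6 ± 0.193 to 8.31 ± 0.661 FPKM, -0.43, limma adjusted p = 0.00468). With the replicate block 1 leukocyte marker was lower and 1 higher. The sum of 10 endothelial markers ran from 4.34 to 4.67 and from 3.94 to 4.46 FPKM, with 1 of 2 tested lower (Emcn, 1.76 to 1.43 FPKM, limma adjusted p = 0.0257, a call that ended without control replicate 1, control replicate 3, RCE replicate 2 or RCE replicate 3). That of 10 epithelial markers ran from 2.26 to 3.18 and from 1.58 to 2.74 FPKM. The 1 epithelial marker tested was not called, but was lower with the block. The sum of 18 fibroblast markers ran from 9368 to 9595 and from 8357 to 8605 FPKM, with 4 lower and 0 higher (13 lower with the block, 2 under quantile normalization, 8 under median-of-ratios scaling, and 1 without control replicate 2, control replicate 3, RCE replicate 2 or RCE replicate 3). The 4 lower fibroblast markers were Col5a1, Col6a1, Pdgfrb and Dcn. Of these only the call of Col6a1 held in all 16 alternatives (changes of -0.45 to -0.33). The part of these marker shifts in the fall of Ccl2 and Ccl7 was not tested. In such bulk RNA, fewer cells that make a chemokine and less of its RNA per cell cannot be told apart.

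The genes most like Ccl2 across the 6 libraries, of 7641 other genes whose mean reached 5 FPKM (left out were the members and predicted or clone-named genes), were Hbegf, a ligand of the EGF receptor, Kctd11 and the small Maf factor Maff, each with a Pearson r of 0.999. Hbegf went from 53.3 to 16.7 FPKM, Kctd11 from 36.7 to 9.64 and Maff from 25.4 to 12.5. Those most like Cxcl12 were Mad2l1bp (r = 0.999), Mtrex (0.997) and Jade3 (0.997), none of which passed the test between groups (limma adjusted p = 0.179, 0.144 and 0.169). These correlations describe 6 points in 2 groups that share their libraries and scaling.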

How the data were processed

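Per the labels' protocols, TRIzol RNA went into TruSeq Stranded mRNA libraries. The authors deposited 1 FPKM value per gene and library, and the submitters' processing notes name STAR 2.5.4, Cufflinks, Cuffdiff 2.2.1 and the build mm10, with no roles. Annotation, filters, other scaling and strand use: not given in the sources used here. Values are relative: more of 1 abundant transcript lowers all others in its library.

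All 21853 identifiers were found in GENCODE M21 (same build), which gave positions and lengths; 24 symbols stood on more than 1 row (the most abundant row was kept). Depth was the value at which FPKM of 0.02 to 0.5, for genes with 1 transcript, gave whole fragments (100% of 359 to 387 values per library within 0.1). Groups followed the labels. limma 3.58.1 (R 4.3.3, intensity trend, threshold 0.05, no block) was run on log2(FPKM + 1) for genes whose mean reached 1 FPKM; single values had exact permutation tests (scipy 1.17.1). On simulated data with 10840 genes this fit called 94.9% of changes of 1 and 65.0% of 0.5, with 7 false calls. Whether these rates hold for the 6 libraries here was not tested. Deviations from group means correlated at 0.92, 0.62 and 0.68 for same-numbered libraries 1, 2 and 3, above the 0.1 taken as the mark for pairing. Values with the number as a block are therefore given beside the unblocked ones where a call changes. Replicates 2 and 3 correlated more when crossed (0.77 and 0.72) than by number, so pairing by number is not shown for them. The labels do not say what the replicate number stands for.

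The members, lists and tests were chosen with earlier results of these data known. Named genes are the 10 members, up to 4 called genes of each list by smallest p, and the 3 genes most like Cxcl12 and Ccl2. Genes named for their role or level (Cxcr4, Cxcr6, Ccr2, Ccl11, Ccl12, Ccl25, Ccl27a, Ccr1, Adam10, Adam17, Rela, Vcam1, Col1a1, Ptprc and Csf1r) were chosen after their values were seen. Alternatives were other pseudocounts (0.1 and 0.5), filters and scalings, no trend, array weights, the block, and libraries left out.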

Additional observations from a re-analysis of the deposited data

How the results depend on the processing

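Ccl2 and Ccl7 were lower in limma in all 16 alternatives, and no direction of the 4 expressed members turned over. The number of members called lower, 2, became 3 with no low-value filter (with Cxcl1), and with the replicate block, with array weights and without both libraries numbered 1 (each with Cx3cl1). The number called higher, 0, became 1 (Cxcl12) with the block, with array weights and without both libraries numbered 1. The block changed no call of Ccl2 and Ccl7. For single libraries left out it stayed 2 lower and 0 higher throughout.

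Counts over all genes, 1910 higher and 736 lower (72.2% higher), were 867 and 485 with a mean of at least 5 FPKM, 5060 and 1730 with the block, 5047 and 1731 with array weights and 4360 and 1481 without both libraries numbered 1. Higher genes numbered 913 with median-of-ratios scaling (against 1082 lower, 45.8% higher) and 785 with quantile normalization (against 857 lower, 47.8% higher). Leaving out 1 library gave 677 to 2029 higher (lowest without RCE replicate 2, and 855 to 920 without control replicate 2, control replicate 3 or RCE replicate 3) and 399 to 739 lower. The difference in log2 ratio of Ccl7 to Ccl2 was 0.94 to 1.08, and that of Cxcl12 to Ccl2, 2.21, was 2.16 to 2.31, with 1 library left out. Paired by replicate number, both gave p = 0.25 (exact permutation test), the smallest that 3 pairs can give. Of 384 counts of list genes under an alternative 283 were equal to the reported one or within 1.5 times it, and 101 were not. Many of the equal counts compared 0 with 0, where no ratio exists. The share therefore says little about lists that held calls. Depth limits the 6 low members, at 12 or fewer fragments per library for the 5 that gave whole fragments. The cause of these shifts was not tested.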
